A study of Rattus norvegicus with 6 samples.

Results

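The genes described here encode the extracellular matrix of the rat renal cortex: collagens, laminins and a fixed set of other matrix genes. The set also includes the enzymes and inhibitors that cross-link or cut this matrix. They were taken from the array by symbol, as every collagen chain, every laminin chain and 20 further named genes. Of 75 such symbols in the rat gene table, 42 were found on the array through the accessions of its probes, with 88 probes, among 15284 named genes in all. The other 33, among them Col4a2, Col4a3, Col4a5, Hspg2, Nid1, Lamb1 and Lox, had no named probe and are not analysed here. RNA of the renal cortex came from 6 male Sprague-Dawley rats, an outbred stock, bought at 5 weeks of age. 3 rats received tris(2-chloroethyl)phosphate (TCEP), a chlorinated organophosphate flame retardant, at 400 mg/kg/day for 4 weeks, and 3 received corn oil, the vehicle, for the same 4 weeks. Each rat was hybridised to 1 single-colour Agilent array, and the design text calls the 3 rats of a group biological replicates.

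Basement membranes are sheets of collagen IV and laminin, joined by nidogens and by heparan sulfate proteoglycans such as agrin. They surround every tubule of the cortex and form the core of the glomerular filter. Laminin subunits assemble as trimers of an alpha, a beta and a gamma chain, and the mature glomerular basement membrane holds laminin alpha5, beta2 and gamma1 together with collagen IV alpha3, alpha4 and alpha5. The interstitium between tubules holds fibrillar collagens I, III and V with decorin, biglycan, fibronectin and fibrillin, which stromal cells deposit in larger amounts in renal fibrosis. Metalloproteinases cut both kinds of matrix, and the TIMP proteins inhibit them.

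Levels below are processed signals on the log2 scale, with the array's own 75th percentile set to 0. Values are given for replicates 1, 2 and 3 in that order, each ± is an SD over 3 arrays, and each difference is TCEP minus vehicle on the log2 scale. 39 of the 42 genes were tested, and these 39 were well above background on all 6 arrays, so none entered through 1 group alone. The remaining 3 were Lum, the fibril proteoglycan lumican, Postn, the matricellular protein periostin, and Col13a1, a transmembrane collagen. Postn and Col13a1 were well above background on 0 arrays, and Lum on 1 vehicle array. Markers of kidney cell types were read beside the tissue label. With no array of another tissue, they cannot tell cortex from other parts of the kidney. The 6 proximal tubule markers were all measured, and the phosphate transporter gene Slc34a1 lay between 8.25 and 8.51 on TCEP arrays and between 8.39 and 8.48 on vehicle arrays. Aqp2, the collecting duct water channel, was also measured on every array. All TCEP arrays lay on slide 2 and all vehicle arrays on slide 1, each slide with its own scan time, so slide, scan and treatment cannot be told apart in any comparison here.

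No matrix gene differed between TCEP and vehicle cortex beyond the threshold of the test. With limma and Benjamini-Hochberg adjustment over 11804 genes, 0 of 39 matrix genes had an adjusted p under 0.05, and 0 of all genes did (0%). The smallest adjusted p among the matrix genes was 0.535, against 0.181 among all genes. At an unadjusted p under 0.05 there were 3 matrix genes (7.69%), against 8.33% of all genes, a share near the background. All 3 were lower with TCEP: the laminin chain gene Lamb2 and the inhibitor genes Timp2 and Timp3. The same 3 were the only matrix genes without overlap between the groups in the reported fit (7.69%), where 15.6% of all genes had none. All genes divided into 4.21% higher and 4.12% lower at an unadjusted p under 0.05, and into 8.63% higher and 6.97% lower without overlap. In whole cortex, fewer cells of a type and less RNA per cell cannot be told apart.

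The differences of the 39 genes lay between -0.30 and 0.21, with a median of -0.01, and the median over all genes was 0.01. TCEP means were higher for 19 of the 39 genes (48.7%) and lower for 20, against 52.5% and 47.5% of all genes. The 95% confidence interval of the difference lay within a 2-fold change in either direction for 39 of 39 genes, against 91.8% of all genes. It lay within a 1.5-fold change for 31 (79.5%), against 76.5% of all genes. Among the 8 genes with wider intervals were Lamc3, Col1a1, Col2a1, Fbn1, Dcn, Tnc and Thbs1. The plot of differences by role shows its 38 intervals inside the 2-fold lines, and 3 that do not cross 0.

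**Figure D1:**
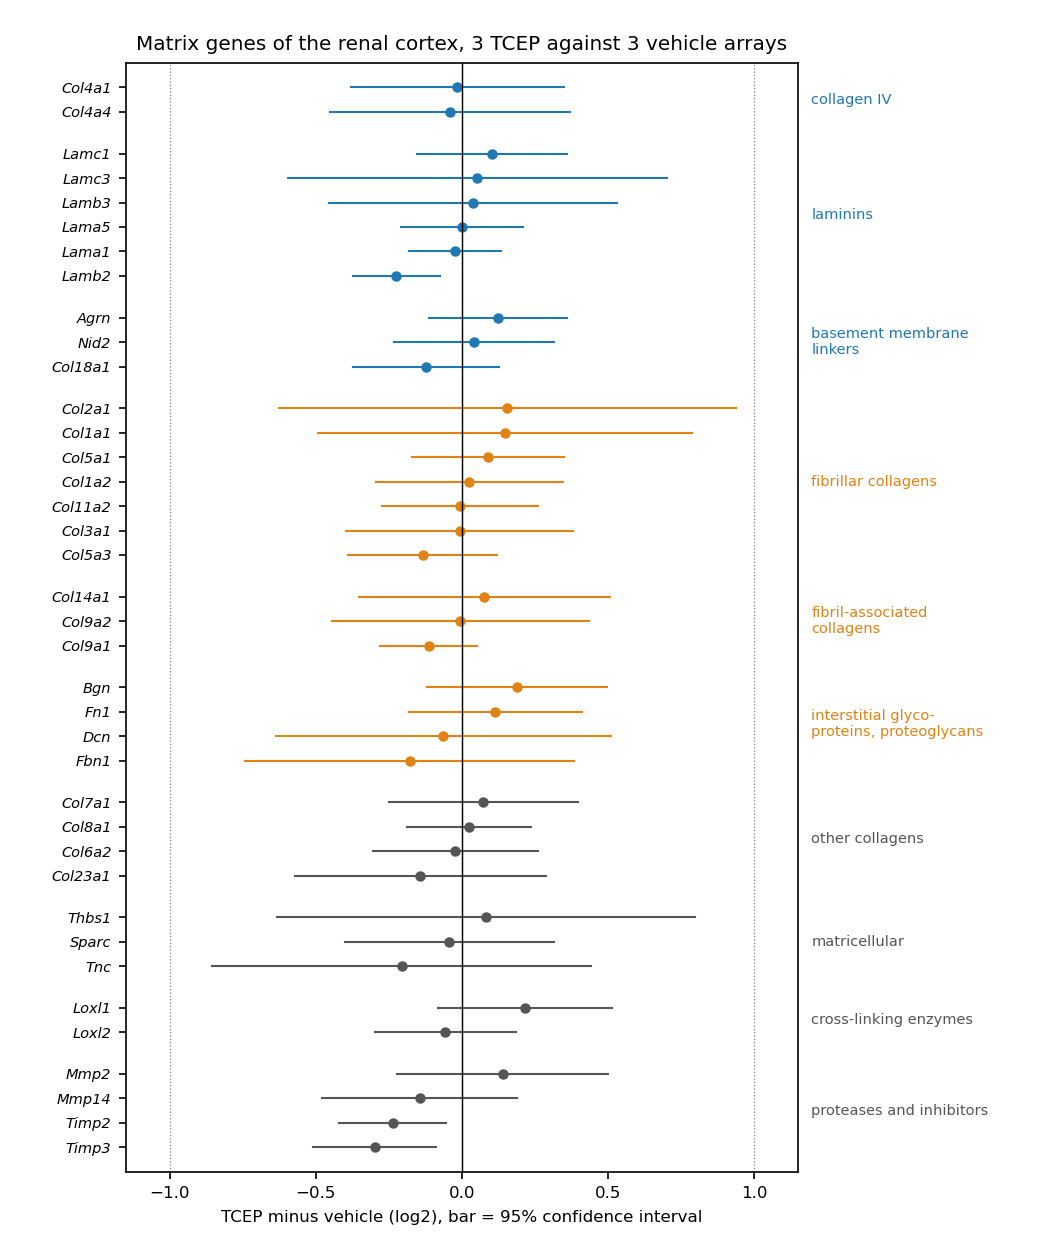
Difference in level between 3 TCEP and 3 vehicle arrays for 38 matrix genes, ordered by role (points, TCEP minus vehicle on the log2 scale, with bars for the 95% confidence interval of the moderated fit and dotted lines at a 2-fold change). Basement membrane genes are blue, fibrillar matrix genes orange and other matrix genes grey. Lamb2 (-0.22), Timp2 (-0.24) and Timp3 (-0.30) have intervals that stay below 0.

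Inhibitors and proteases held 2 of the 3 genes at an unadjusted p under 0.05. Timp3 encodes a matrix-bound inhibitor of metalloproteinases. Its level was 1.20, 1.40 and 1.36 on TCEP arrays, against 1.63, 1.52 and 1.70 on vehicle arrays. All 3 TCEP arrays lay below all 3 vehicle arrays. The means were 1.32 ± 0.10 with TCEP and 1.62 ± 0.09 with vehicle, a difference of -0.30 (SE 0.09, 95% confidence interval -0.51 to -0.09), or 81.3% of the vehicle level (limma unadjusted p = 0.0135, adjusted p = 0.535).

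Timp2 encodes a soluble inhibitor that also takes part in the activation of pro-MMP2 by MMP14. Its level was 3.63, 3.67 and 3.65 on TCEP arrays, against 4.005, 3.86 and 3.80 on vehicle arrays. The TCEP arrays lay close together and below every vehicle array. The difference was -0.24 (SE 0.07, 95% confidence interval -0.42 to -0.06), or 84.8% of the vehicle level (limma unadjusted p = 0.0188, adjusted p = 0.547). With normexp background correction on the median spot signals the differences were -0.15 for Timp3 (limma unadjusted p = 0.146) and -0.22 for Timp2 (limma unadjusted p = 0.0205). Without vehicle replicate 1, the highest array for Timp2, its difference was -0.18 (unadjusted p = 0.0571).

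The promoters of both inhibitor genes are shown because these genes lay lower on every TCEP array. The RefSeq windows on GRCr8 run from 250 bases before to 50 bases after the gene's start, 5′ to 3′ on the gene's strand. Timp2 lies at chr10:104089165-104089464 (minus strand) and Timp3 at chr7:19459509-19459808 (minus strand). Capitals mark matches on either strand to 4 motifs, which do not overlap in these windows. The GC box was searched as GGGCGG. The CCAAT box was searched by the letters of its name. The TATA box was searched as TATAAA, and the AP-1 site as TGACTCA.
Timp2: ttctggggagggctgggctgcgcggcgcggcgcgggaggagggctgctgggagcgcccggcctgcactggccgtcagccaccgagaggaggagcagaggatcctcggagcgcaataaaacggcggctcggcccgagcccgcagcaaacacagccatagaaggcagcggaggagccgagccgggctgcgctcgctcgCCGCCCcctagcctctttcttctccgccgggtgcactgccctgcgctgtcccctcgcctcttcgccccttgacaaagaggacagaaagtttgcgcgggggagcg
Timp3: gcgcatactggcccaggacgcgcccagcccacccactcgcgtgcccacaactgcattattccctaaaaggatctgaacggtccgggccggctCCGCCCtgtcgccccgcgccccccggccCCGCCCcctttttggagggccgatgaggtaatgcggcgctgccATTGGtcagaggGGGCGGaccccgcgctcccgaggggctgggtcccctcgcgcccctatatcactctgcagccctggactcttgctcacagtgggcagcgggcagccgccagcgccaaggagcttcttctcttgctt
The Timp2 window held 1 GC box match, and the Timp3 window held 3 GC box matches and 1 CCAAT match. Neither window held the TATA or AP-1 letters. Over 33469 windows of this length, 33.1% held the GC box letters, 37.5% the CCAAT letters, 14.2% the TATA letters and 4.63% the AP-1 letters. Windows were in the table for 25 of the 39 matrix genes, of which 15 (60%) held the GC box letters. The GC content was 70.3% for Timp2 and 68.7% for Timp3, with a median of 62.7% over the matrix genes' windows and 51.7% over all windows.

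The protease genes Mmp2 and Mmp14 overlapped between the groups. Mmp2, the gelatinase that cuts collagen IV and denatured collagen, was at 0.46, 0.74 and 0.83 on TCEP arrays, against 0.78, 0.43 and 0.40 on vehicle arrays. Vehicle replicate 1 lay beside the 2 higher TCEP arrays, and the difference was 0.14 (95% confidence interval -0.22 to 0.50). Mmp14, a membrane-type protease, was at 2.01, 2.09 and 2.24 on TCEP arrays, against 2.50, 2.02 and 2.26 on vehicle arrays, with a difference of -0.15 (95% confidence interval -0.48 to 0.19). Of the 17 measured genes of a further list of proteases and inhibitors, 9 were higher and 8 lower with TCEP, with a median of 0.04 and 0 called. In that list Mmp15, a membrane-type metalloproteinase, was at 5.42, 5.54 and 5.49 on TCEP arrays, against 5.68, 5.74 and 5.67 on vehicle arrays. Its groups did not overlap, and it differed by -0.21 (SE 0.06, limma unadjusted p = 0.0164, adjusted p = 0.547). The meprin gene Mep1a differed by 0.33 (SE 0.20) and the urokinase gene Plau by 0.27 (SE 0.18), both with overlap. Mmp16, another membrane-type metalloproteinase, differed by 0.14 (SE 0.07), without overlap. The TIMP genes of that list, Timp1 (-0.04, SE 0.08) and Timp4 (-0.12, SE 0.14), overlapped between the groups.

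Basement membrane genes showed no common direction. Of 12 measured genes 7 were higher and 5 lower with TCEP, with a median difference of 0.02, against 0.01 over all genes. The median was between -0.05 and 0.06 over the alternative settings and took the other sign in 7 of them. Collagen IV was represented by the chains alpha1, found in all basement membranes, and alpha4, found in the glomerular filter and some tubules. Col4a1 was at 3.93, 4.35 and 4.34 on TCEP arrays, against 4.34, 4.03 and 4.30 on vehicle arrays. TCEP replicate 1 and vehicle replicate 2 were low and the other 4 arrays lay within 0.05 of each other. The difference was -0.02 (95% confidence interval -0.38 to 0.35). Col4a4 was at 2.35, 2.58 and 2.60 on TCEP arrays, against 2.88, 2.28 and 2.49 on vehicle arrays, a difference of -0.04 (95% confidence interval -0.45 to 0.37).

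Arrays did not overlap between the groups for 1 of 7 laminin chains, Lamb2, a share near the 15.6% of all genes. Lamb2, the beta2 chain, was at 1.43, 1.45 and 1.43 on TCEP arrays, against 1.72, 1.60 and 1.66 on vehicle arrays. All TCEP arrays lay below all vehicle arrays, and the means were 1.44 ± 0.01 with TCEP and 1.66 ± 0.06 with vehicle. The difference was -0.22 (SE 0.06, 95% confidence interval -0.37 to -0.08), or 85.6% of the vehicle level (limma unadjusted p = 0.0102, adjusted p = 0.535). It was -0.05 (unadjusted p = 0.442) with normexp on the median spot signals.

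The alpha5 chain gene Lama5 was at 1.78, 1.75 and 1.99 on TCEP arrays, against 1.88, 1.79 and 1.85 on vehicle arrays, with a difference of 0.00 (95% confidence interval -0.21 to 0.21). Lamc1, the gamma1 chain common to most laminins, was at 2.00, 1.99 and 1.96 on TCEP arrays, against 2.09, 1.82 and 1.73 on vehicle arrays, with a difference of 0.10 (95% confidence interval -0.15 to 0.36). Both overlapped between the groups. Whether the difference of Lamb2 departs from that of Lama5 or Lamc1 was not tested. Lama1, the alpha1 chain of early and proximal tubule basement membranes, was at -1.98, -2.02 and -2.01 on TCEP arrays, against -2.03, -2.00 and -1.90 on vehicle arrays, a difference of -0.03 (95% confidence interval -0.18 to 0.13). Lamb3, a chain of epithelial laminin-332, was at -2.12, -1.37 and -1.78 on TCEP arrays, against -1.98, -1.68 and -1.73 on vehicle arrays. The dimmer Lamc3 differed by 0.05 (95% confidence interval -0.59 to 0.70).

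The genes of proteins that link the collagen IV and laminin networks also overlapped between the groups. Agrn, which encodes agrin, was at 4.81, 4.72 and 4.51 on TCEP arrays, against 4.51, 4.63 and 4.52 on vehicle arrays, a difference of 0.12 (95% confidence interval -0.11 to 0.36). Col18a1, a collagen with heparan sulfate chains, was at 2.47, 2.46 and 2.50 on TCEP arrays, against 2.79, 2.42 and 2.59 on vehicle arrays, a difference of -0.12 (95% confidence interval -0.37 to 0.13). Nid2, the nidogen-2 gene, differed by 0.04 (95% confidence interval -0.23 to 0.31).

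**Figure D2:**
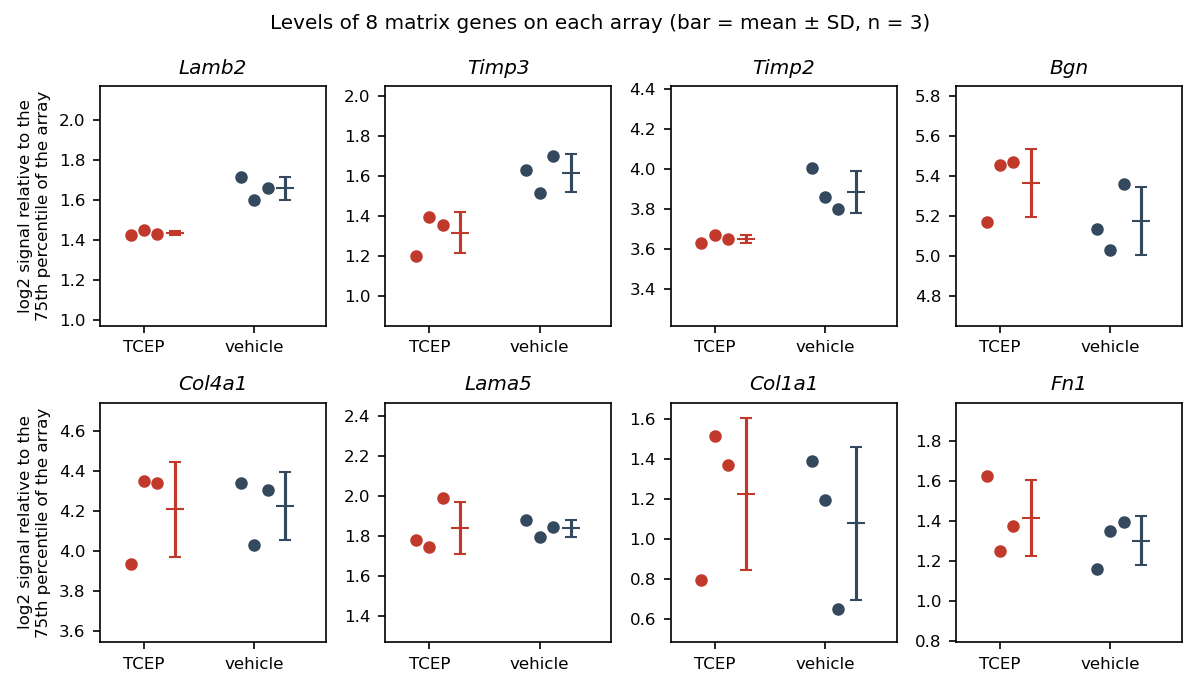
Level of 8 matrix genes on each array, on the log2 scale with the array's 75th percentile at 0 (points are arrays, replicates 1 to 3 from left to right, with TCEP left of vehicle, and bars give the mean ± SD of 3 arrays). All panels span the same range of log2 units. The groups separate for Lamb2, Timp3 and Timp2 and overlap for Bgn, Col4a1, Lama5, Col1a1 and Fn1, and the 2 lowest arrays of Col4a1 are TCEP replicate 1 and vehicle replicate 2.

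Fibrillar matrix genes divided evenly. Of 14 measured genes 7 were higher and 7 lower with TCEP, with a median difference of 0.01 (between -0.06 and 0.07 over the alternative settings, of the other sign in 4). Collagen I is a trimer of alpha1 and alpha2 chains. Col1a1 was at 0.79, 1.51 and 1.37 on TCEP arrays, against 1.39, 1.19 and 0.65 on vehicle arrays, and its spread within each group exceeded the difference of 0.15 (95% confidence interval -0.49 to 0.79). Col1a2 was at 3.38, 3.71 and 3.76 on TCEP arrays, against 3.74, 3.46 and 3.59 on vehicle arrays, a difference of 0.02 (95% confidence interval -0.30 to 0.34). The low array of the TCEP group was replicate 1 for both chains.

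Col3a1, the collagen III chain that co-assembles with collagen I, was at 1.69, 1.94 and 2.01 on TCEP arrays, against 2.10, 1.97 and 1.59 on vehicle arrays, a difference of -0.01 (95% confidence interval -0.40 to 0.38). The collagen V chain gene Col5a3 was at -2.11, -1.87 and -2.18 on TCEP arrays, against -1.98, -1.82 and -1.97 on vehicle arrays, a difference of -0.13 (95% confidence interval -0.39 to 0.12). Its partner Col5a1 was at -0.74, -0.57 and -0.45 on TCEP arrays, against -0.72, -0.78 and -0.53 on vehicle arrays, a difference of 0.09 (95% confidence interval -0.17 to 0.35). The remaining fibrillar chains are known from cartilage: Col11a2 differed by -0.01, and Col2a1 by 0.15 with the widest interval of the set (-0.63 to 0.94), since TCEP replicate 3 lay at -3.29 beside -4.35 and -4.50. Fibril-associated collagens sit on the surface of fibrils. Col9a1 differed by -0.11, Col9a2 by -0.01 and Col14a1 by 0.08, and each had intervals that included 0.

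Of the interstitial glycoproteins and proteoglycans, Bgn, which encodes the small proteoglycan biglycan, was at 5.17, 5.46 and 5.47 on TCEP arrays, against 5.14, 5.03 and 5.36 on vehicle arrays. The groups overlapped through TCEP replicate 1 and vehicle replicate 3, and the difference was 0.19 (95% confidence interval -0.12 to 0.50). Fn1, the fibronectin gene, was at 1.62, 1.25 and 1.37 on TCEP arrays, against 1.16, 1.35 and 1.39 on vehicle arrays, a difference of 0.11 (95% confidence interval -0.18 to 0.41). Fbn1, the fibrillin-1 gene of microfibrils, was at 0.63, 1.05 and 0.58 on TCEP arrays, against 1.35, 0.90 and 0.56 on vehicle arrays, a difference of -0.18 (95% confidence interval -0.74 to 0.38). Dcn, the decorin gene, was at 3.13, 3.35 and 2.57 on TCEP arrays, against 3.19, 3.26 and 2.78 on vehicle arrays, a difference of -0.06 (95% confidence interval -0.64 to 0.51). In the last 2 genes the arrays of a group differed from each other by more than the group means did.

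Of the enzymes that cross-link collagen and elastin, Loxl1 was at 2.15, 2.52 and 2.50 on TCEP arrays, against 2.12, 2.12 and 2.29 on vehicle arrays. TCEP replicate 1 lay among the vehicle arrays and the other 2 TCEP arrays above all of them. The difference was 0.21 (SE 0.12, 95% confidence interval -0.08 to 0.51, limma unadjusted p = 0.129, adjusted p = 0.690). Leaving out 1 array at a time gave 0.15 to 0.33, with 0.33 (limma unadjusted p = 0.0107) without TCEP replicate 1. No other of these leave-out fits had an unadjusted p under 0.05 for Loxl1. A second Loxl1 probe, read on the same arrays, gave 0.21. Loxl2 differed by -0.06 (95% confidence interval -0.30 to 0.18).

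Matricellular proteins modulate how cells attach to matrix. Sparc, a collagen-binding member, was at 4.94, 5.44 and 5.26 on TCEP arrays, against 5.41, 5.16 and 5.20 on vehicle arrays, a difference of -0.04 (95% confidence interval -0.40 to 0.32). Tnc, the tenascin-C gene, and Thbs1, the thrombospondin-1 gene, were dim and differed by -0.21 (95% confidence interval -0.86 to 0.44) and 0.08 (95% confidence interval -0.63 to 0.80). Of the other collagens, the beaded-filament chain Col6a2 was at 1.96, 2.37 and 2.19 on TCEP arrays, against 2.12, 2.21 and 2.26 on vehicle arrays, a difference of -0.02 (95% confidence interval -0.30 to 0.26). Col7a1, of anchoring fibrils, differed by 0.07, the network-forming Col8a1 by 0.02 and the transmembrane Col23a1 by -0.14.

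The contrast of basement membrane with fibrillar matrix was near 0 on every array. The mean deviation of the basement membrane genes from their own 6-array means was -0.03, -0.01 and 0.05 on TCEP arrays, against 0.11, -0.07 and -0.05 on vehicle arrays. For the fibrillar matrix genes it was -0.09, 0.03 and 0.09 on TCEP arrays, against 0.08, -0.05 and -0.06 on vehicle arrays. The first minus the second averaged -0.01 ± 0.06 on TCEP arrays and 0.01 ± 0.02 on vehicle arrays, so that the 2 kinds of matrix shifted against each other by -0.01, less than its spread within either group. With collagen IV, laminins, Nid2 and Agrn alone set against fibrillar collagens alone, the median differences were 0.04 and 0.02.

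The median within-group SD was 0.18 for matrix genes, against 0.13 over all genes. TCEP replicate 1 was the lowest TCEP array for 24 of the 39 genes (61.5%), against 41.8% of all genes. Vehicle replicate 2 was the lowest vehicle array for 20 of the 39 (51.3%), against 36.1% of all genes. Without TCEP replicate 1 the median difference of the 39 genes was 0.06, and without TCEP replicate 3 it was -0.07. The marker lists of podocytes, of mesangium, pericytes and smooth muscle, of endothelium and of proximal tubule were each lowest on TCEP replicate 1 and vehicle replicate 2 within their groups. Other lists were not. Thick ascending limb markers were highest on TCEP replicate 1 (0.17) and lowest on vehicle replicate 3 (-0.10). Collecting duct markers were lowest on TCEP replicate 2 (-0.10) and vehicle replicate 2 (-0.06). Macrophage markers were lowest on TCEP replicate 3 (-0.24) and vehicle replicate 1 (-0.21), and highest among vehicle arrays on replicate 2 (0.28). For proximal tubule markers the mean deviation was -0.15 on TCEP replicate 1 and -0.07 on vehicle replicate 2, and for endothelial markers it was -0.14 and -0.08. Perirenal fat markers were at 0.83 on TCEP replicate 1 and 0.14 on vehicle replicate 2, each the highest array of its group. Neutrophil and erythroid markers were at 1.30 on vehicle replicate 2, the highest vehicle array. On TCEP replicate 1 they were at -0.67, the lowest TCEP array. Podocyte markers, of the cells that carry the glomerular filter, had a mean deviation of -0.29, -0.03 and 0.04 on TCEP arrays, against 0.18, -0.05 and 0.15 on vehicle arrays. The markers of mesangium, pericytes and smooth muscle were at -0.12, 0.02 and 0.04 on TCEP arrays, against 0.14, -0.16 and 0.08 on vehicle arrays.

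Fibroblast markers, 1 of which is Col1a1, were at -0.18, 0.09 and 0.14 on TCEP arrays, against 0.07, -0.01 and -0.11 on vehicle arrays, so that TCEP replicate 1 and vehicle replicate 3 were lowest. The fibroblast receptor gene Pdgfra was at 2.46, 2.61 and 2.59 on TCEP arrays, against 2.30, 2.20 and 2.37 on vehicle arrays, without overlap (difference 0.26, SE 0.08, limma adjusted p = 0.537). Vim, of the same list, differed in the other direction by -0.19 (SE 0.09), with overlap. Of 8 podocyte markers all 8 had lower TCEP means (median -0.22, 0 called), with summed linear levels between 40.5 and 53.9 on TCEP arrays and between 43.5 and 54.0 on vehicle arrays. The 8 differences ran from -0.34 to -1.4e-05, and the nephrin gene Nphs1, of the slit diaphragm, differed by -0.32 (SE 0.14). All 7 macrophage markers (median -0.15) and all 4 neutrophil and erythroid markers (median -0.62) were lower with TCEP as well. Of 5 collecting duct markers 4 were lower and 1 higher (median -0.20). All 4 perirenal fat markers were higher (median 0.45), and 0 genes of these lists were called. Of 10 fibroblast markers 4 were higher and 6 lower, with sums between 19.98 and 22.8 on TCEP arrays and between 20.6 and 22.3 on vehicle arrays, and of 10 mesangial, pericyte and smooth muscle markers 3 were higher and 7 lower, with sums between 55.6 and 60.4 on TCEP arrays and between 60.2 and 66.3 on vehicle arrays. Cnn1 of the smooth muscle list was well above background on 1 vehicle array alone, and was not tested. The macrophage marker Cd163 and the fat marker Lep were well above background on 0 arrays, and were not tested either. The part of these lists in the values of Lamb2, Timp2 and Timp3 was not tested.

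**Figure D3:**
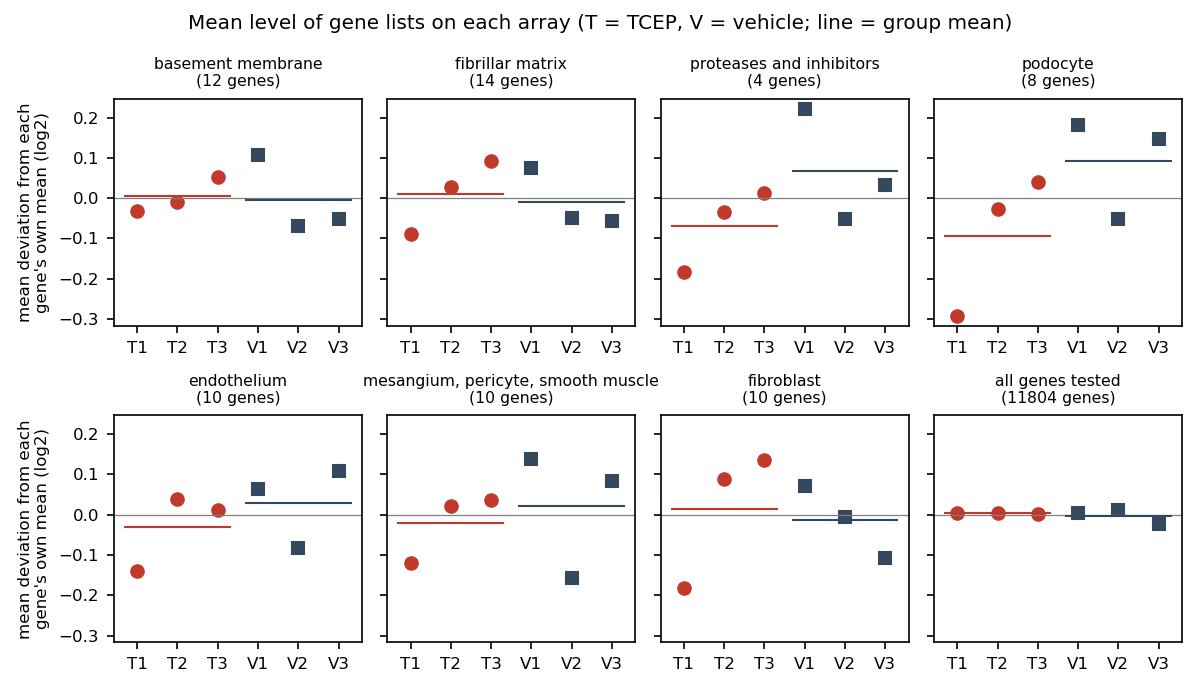
Mean deviation of the genes of a list from their own mean over 6 arrays (log2, y axis) on each array (TCEP replicates T1 to T3 left of vehicle replicates V1 to V3, lines are group means) for basement membrane, fibrillar matrix, the protease and inhibitor genes, 4 marker lists and all genes. T1 is the lowest TCEP array in the 7 lists shown and V2 is the lowest vehicle array in 5 of them, while all genes stay between -0.02 and 0.01.

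Genes that process, bind or induce matrix were read from lists beside the matrix genes. Of 17 measured genes for collagen folding and processing, 9 were higher and 8 lower with TCEP (median 0.04, 0 called). The prolyl hydroxylase gene P3h1 was at 2.84, 2.76 and 2.81 on TCEP arrays, against 2.70, 2.63 and 2.62 on vehicle arrays, without overlap (difference 0.15, SE 0.06, limma unadjusted p = 0.0449, adjusted p = 0.592). P4hb, a subunit of prolyl 4-hydroxylase, was also higher with TCEP without overlap, with a difference of 0.10 (SE 0.06), while P3h3 (0.33, SE 0.22) and the lysyl hydroxylase gene Plod2 (0.14, SE 0.13) overlapped.

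Of 14 matrix receptors 5 were higher and 9 lower (median -0.04, 0 called). Bcam, which encodes a receptor for laminin alpha5, was at 0.85, 1.05 and 1.05 on TCEP arrays, against 1.20, 1.06 and 1.18 on vehicle arrays, a difference of -0.16 (SE 0.09) without overlap, the nearest arrays lying close together. The heparan sulfate proteoglycan gene Sdc2 differed by 0.22 (SE 0.10), its lowest TCEP array lying above its highest vehicle array. The integrin chain genes Itgb5 (-0.11, SE 0.10) and Itga1 (-0.15, SE 0.16) overlapped between the groups.

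Of 21 genes of the TGF-beta pathway, a main inducer of matrix genes, 11 were higher and 10 lower (median 0.00, 0 called). Tgfb1, the ligand, was at -2.48, -2.48 and -2.42 on TCEP arrays, against -2.70, -2.49 and -2.63 on vehicle arrays. Its groups did not overlap, by 0.01 between the nearest arrays, and it differed by 0.14 (SE 0.08). The receptor gene Tgfbr1 differed by -0.17 (SE 0.08), the type I receptor gene Acvr1 by -0.30 (SE 0.14) and the repressor gene Tgif1 by 0.26 (SE 0.12), all 3 with overlap.

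Several genes were read by more than 1 probe, which allows a check within the gene. Of 26 matrix genes with several probes above background, the probes had 1 sign in 15 and both signs in 11, and 24 of the 36 further probes had the sign of the brightest one. The 3 Agrn probes gave 0.12, 0.14 and 0.17, and the 3 Col1a1 probes gave 0.15, 0.20 and 0.07. The largest disagreement was in Lamc1, singled out after its values were seen. Its brightest probe gave 0.10, while a dim probe was at -3.41, -2.79 and -3.12 on TCEP arrays, against -2.60, -2.75 and -2.59 on vehicle arrays, with a difference of -0.46 (limma unadjusted p = 0.0298 with each probe on its own). The remaining Lamc1 probe gave -0.08. Of 4 Col4a1 probes, 3 gave -0.02, 0.05 and -0.02, and the fourth gave -0.34, with 3.07, 3.62 and 3.21 on TCEP arrays against 3.59, 3.78 and 3.54 on vehicle arrays. Lamb2, Timp2 and Timp3 have 1 probe each, so this check was not available for them.

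**Figure D4:**
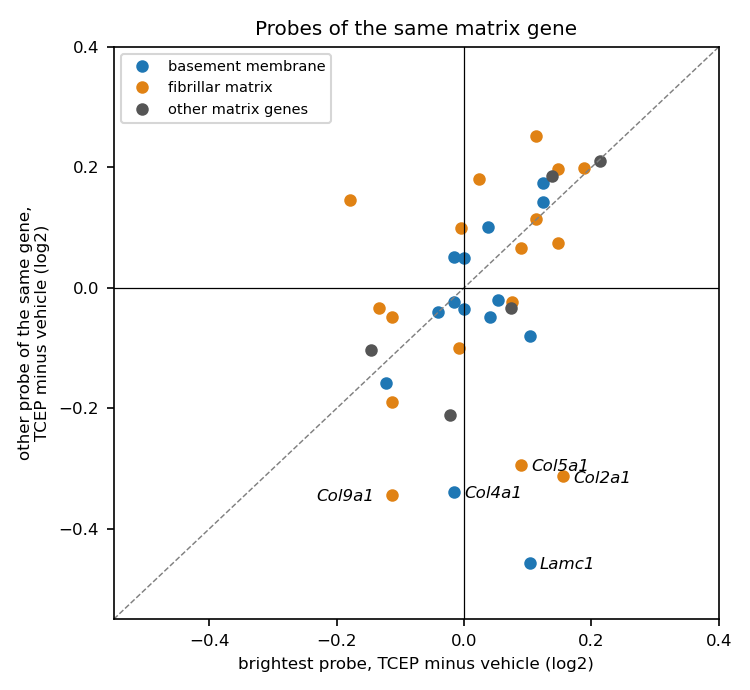
Difference between TCEP and vehicle (log2) for the brightest probe of a matrix gene (x axis) and for each further probe of that gene above background (y axis), 36 probes of 26 genes. The dashed line marks equal values, and the 5 named genes have a further probe below -0.28, with Lamc1 the farthest at -0.46.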

How the data were processed

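Total RNA of 3 TCEP and 3 vehicle cortices was read on 1-colour Agilent arrays. Agilent's Feature Extraction 10.7.1.1 produced the authors' scanner output, per the file headers. Its processed signal, deposited as an intensity, is already background-subtracted and has no scaling across arrays. Other deposited columns are flags of 0 or 1 that mark saturated spots, outliers and spots well above background, per the file headers. The deposited series matrix holds the same signal as a ratio to a constant per array near its 75th percentile, on a linear scale, with column medians between 0.104 and 0.107. Direction is that of the signal, and no centring of genes was seen.

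Here log2 processed signal was centred on each array's 75th percentile, taken over the 61657 probes that are no controls. Between 41457 and 42733 probes were well above background per array, and the number of arrays limits the precision. 12 outlier probes were left out. Accessions named 27460 probes (44.5%) through a RefSeq table of GRCr8, used for names. Promoter sequences are RefSeq's, on GRCr8. A gene was represented by its brightest probe, tested if every array of at least 1 group had it well above background, and compared with limma 3.58.1 in R 4.3.3 (group alone, two-sided, Benjamini-Hochberg), with Python 3.11.15 for tables. The fit was tested on simulated data. Marker and pathway lists got counts and medians, with no test. Matrix genes could be named at any p, with up to 4 genes by smallest p per further list. Timp1 and Timp4 were named in addition, beside Timp2 and Timp3. Some genes of the lists are counted but not reported by name here. Members and lists were chosen with earlier results of these data known. No label says that equal replicate numbers share a litter, cage or day, so the reported fit has no pairing. Deviations of equal numbers correlated at -0.15, -0.10 and 0.23, which cannot exclude a pairing with 3 arrays per group.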

Additional observations from a re-analysis of the deposited data

How the results depend on the processing

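In all 19 fits over genes or probes, 0 genes and 0 matrix genes had an adjusted p under 0.05. Genes at an unadjusted p under 0.05 numbered 983 in the reported fit, 384 with spike-in centring, 1568 with normexp on the median spot signals and 1675 with each named probe on its own. Matrix genes at that unadjusted threshold numbered 0 with spike-in centring and 2 to 4 otherwise. Over 18 gene fits Timp3 was among them in 16, Lamb2 in 15, Timp2 in 15, Loxl1 in 4, and Bgn, Lamc1 and Col23a1 in 1 each. Lamb2, Timp2 and Timp3 were lower with TCEP in all 18, by differences of -0.25 to -0.05, -0.28 to -0.18 and -0.35 to -0.15. With normexp the unadjusted p was 0.442 for Lamb2, 0.0205 for Timp2 and 0.146 for Timp3. With spike-in centring their unadjusted p was 0.256, 0.212 and 0.131, and without scaling 0.0555, 0.0535 and 0.0187, in the same order. Leaving out 1 array at a time gave medians of -0.07 to 0.06 for all matrix genes, -0.05 to 0.05 for basement membrane and -0.06 to 0.07 for fibrillar matrix. The replicate block left all these differences as they were and gave 3 matrix genes at an unadjusted p under 0.05, with 0.0397 for Lamb2, and 2 of 6 arrays correlated best with their own number. Normexp was run on median spot signals, and mean signals entered no fit. The median of all genes was 0.05 without scaling, against 0.01. The reading of every detected matrix probe was chosen after seeing the data.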
